A study of Mus musculus with 24 samples.

Results

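The Dlk1-Dio3 imprinted locus of the mouse was described here through 6 genes, Meg3, Rian, Mirg, Dlk1, Rtl1 and Dio3, out of 55487 gene rows in each count table. They were taken by symbol, and the set was chosen by measured values: the counts of Meg3, Rian and Mirg differed between a pair of wild-type lines of the series, WT pLV2 line 1 and WT pLV2 line 2. Values of the members in that contrast are therefore given below as a description, with no test, and counts of other genes called in it describe the same pair of lines. The interval from the start of Dlk1 to the end of Dio3 spans 828275 bases of chromosome 12 and holds 118 annotated genes in GENCODE mouse release M21 (GRCm38), of which 116 had a row. Of the 6 members, Meg3, Rian, Mirg, Dlk1 and Dio3 passed the filter on low counts used for testing. Rtl1 did not, and its counts are given as they stand.

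All samples were KH2 cells, a mouse embryonic stem cell line built to carry inducible transgenes, and RNA was sequenced in 24 libraries, 12 groups of 2. Every group, wild types and untreated libraries included, carried TRE_DUX, a transgene that makes DUX when doxycycline (DOX) is added, and 12 libraries received DOX during 16 h before collection. DUX is a transcription factor that switches on genes of the early cleavage embryo. The groups were WT and DUXBL-KO (knockout of DUXBL, a protein related to DUX), and, with pLV2 in their titles, WT pLV2 line 1, TRIM24-KO, WT pLV2 line 2 and TRIM33-KO (knockouts of chromatin-binding co-regulators), each without and with DOX. What pLV2 stands for is not stated, the number behind it is taken as that of the line, and it is not given which wild type goes with which knockout or whether a line is 1 clone. Nothing says that replicates came from separate cultures, so p-values measure only the spread between these samples, which may be technical. Cells were grown on gelatin or on a layer of growth-arrested fibroblasts, and the labels do not say which library had which. RNA was depleted of rRNA and sequenced as directional libraries. The strand setting of the counting is not given in the sources used here, so reads of genes that lie on opposite strands at the same place cannot be told apart.

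Genes of this locus are expressed from a single parental copy. Dlk1 (a membrane ligand related to the Notch ligands), Rtl1 (a retrotransposon-derived gene needed in the placenta) and Dio3 (an enzyme that inactivates thyroid hormone) are expressed from the paternal copy. Meg3 (also called Gtl2), Rian and Mirg are long non-coding RNAs of the maternal copy, transcribed in the same direction, with many C/D box snoRNAs within Rian and many microRNAs (miRNAs) in and around Mirg and opposite Rtl1. A differentially methylated region between Dlk1 and Meg3 controls which copy is active. Silencing of the maternal RNAs is known to arise in some mouse embryonic stem cell and induced pluripotent lines.

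Meg3 (ENSMUSG00000021268.17, plus strand, 109541001 to 109571726), Rian (ENSMUSG00000097451.11, plus strand, 109603940 to 109661716) and Mirg (ENSMUSG00000097391.8, plus strand, 109729764 to 109749460) follow each other along chromosome 12. Dlk1 (ENSMUSG00000040856.17, plus strand, 109452823 to 109463336) lies before them and Dio3 (ENSMUSG00000075707.5, plus strand, 110279068 to 110281097) behind them. Rtl1 (ENSMUSG00000085925.3, minus strand, 109589193 to 109600330) lies between Meg3 and Rian on the other strand.

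The promoter windows of Meg3 and Dio3 are shown because these genes stood on opposite sides of the contrast between WT pLV2 lines 1 and 2 without DOX. They come from the RefSeq table of GRCm38.p6, which held windows for 5 of the 6 members (2 for Meg3, of which the one at the annotated start is shown), each 300 bases long from 250 before to 50 after a RefSeq start. Searched on both strands were TGACGTCA (the cyclic-AMP response element), TATAAA (the TATA box), CCAAT (the CCAAT box), GGGCGG (the GC box) and TGCCGC (the unmethylated form of the hexamer bound by ZFP57, a protein that protects imprints). Matches are in capitals. Meg3 window, chr12:109540746-109541045, plus strand, and Dio3 window, chr12:110278980-110279279, plus strand:
Meg3: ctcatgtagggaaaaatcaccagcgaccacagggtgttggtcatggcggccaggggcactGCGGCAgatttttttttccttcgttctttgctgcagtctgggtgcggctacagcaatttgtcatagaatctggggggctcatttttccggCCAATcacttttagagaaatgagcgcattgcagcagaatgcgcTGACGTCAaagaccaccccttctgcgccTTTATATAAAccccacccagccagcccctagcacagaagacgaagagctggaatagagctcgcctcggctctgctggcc
Dio3: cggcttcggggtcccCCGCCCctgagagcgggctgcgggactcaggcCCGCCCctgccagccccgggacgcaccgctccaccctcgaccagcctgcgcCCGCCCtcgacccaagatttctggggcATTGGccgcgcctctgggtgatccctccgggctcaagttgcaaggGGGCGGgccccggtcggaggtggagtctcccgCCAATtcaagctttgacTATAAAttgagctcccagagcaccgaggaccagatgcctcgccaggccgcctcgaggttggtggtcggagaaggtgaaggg
The Meg3 window held 5 matches. Counted from the annotated Meg3 start, the hexamer (minus strand) began at -195, CCAAT at -105, TGACGTCA at -62 and TATAAA at -30, with a match on the minus strand at -34 that overlaps it. Of 32851 promoter windows of that length, 1.79% held TGACGTCA, 13.6% TATAAA, 37.4% CCAAT, 35.7% GGGCGG and 11.6% TGCCGC. The Meg3 window held 13 CpG sites at 53.7% GC, and the Dio3 window held 25 at 69% GC, against a median of 7 CpG sites and 52.7% GC over all windows. The Dio3 window held 7 matches, 4 of them GGGCGG. Counted from the annotated Dio3 start, GGGCGG began at -73, -41, 10 and 82, CCAAT at 37 and 114, and TATAAA at 131. This window thus lies largely behind the annotated start. The other Meg3 window, chr12:109545148-109545447, held 1 CpG site and none of these letters. The Mirg window, chr12:109734731-109735030, lies within the annotated gene. It held 10 CpG sites and 1 match, CCAAT, 5033 bases behind the annotated Mirg start. The Rian window held 0 CpG sites and none of these letters, and the Dlk1 window held 9 CpG sites and none of these letters. A match is a description of the letters and says nothing of a factor's binding in these cells.

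The small RNAs are shown next because their rows went with their host RNAs. Of 67 miRNA rows in the interval, 61 matched RefSeq, with 114 mature miRNAs and 104 distinct seeds (bases 2 to 8). The 6 miRNA rows opposite Rtl1 hold sequences that pair fully with Rtl1 RNA, since they are its other strand. Mature sequences of 5 of these rows follow, with the seed in capitals:
mmu-miR-431-5p: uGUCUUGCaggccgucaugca
mmu-miR-431-3p: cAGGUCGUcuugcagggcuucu
mmu-miR-433-5p: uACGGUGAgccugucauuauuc
mmu-miR-433-3p: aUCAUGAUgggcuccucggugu
mmu-miR-127-5p: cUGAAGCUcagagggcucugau
mmu-miR-127-3p: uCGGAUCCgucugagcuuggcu
mmu-miR-434-5p: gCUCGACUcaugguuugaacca
mmu-miR-434-3p: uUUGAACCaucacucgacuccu
mmu-miR-432: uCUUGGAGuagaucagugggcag
Only 10 seeds were shared by at least 2 hairpins of the interval. Examples of shared seeds, again in capitals, are the following pairs:
mmu-miR-379-5p: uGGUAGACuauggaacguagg
mmu-miR-1193-5p: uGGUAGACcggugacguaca
mmu-miR-379-3p: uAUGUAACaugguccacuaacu
mmu-miR-411-3p: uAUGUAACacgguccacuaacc
mmu-miR-494-5p: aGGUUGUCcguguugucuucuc
mmu-miR-410-5p: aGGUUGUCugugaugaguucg
mmu-miR-376c-5p: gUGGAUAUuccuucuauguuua
mmu-miR-376b-5p: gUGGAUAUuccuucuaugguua
The snoRNA row with the most counts was Gm24895, within Rian (chr12:109646129-109646202, plus strand, 74 bases), with its C box from base 9 and its D box from base 64 in capitals:
Gm24895: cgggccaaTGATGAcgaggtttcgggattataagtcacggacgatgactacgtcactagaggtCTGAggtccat

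Library totals ran from 11784696 to 19136869 gene counts. Levels are CPM (each library's counts scaled to a common total), with library sizes adjusted by the trimmed mean of M-values (TMM) over all 24 libraries. A treatment tag went against the title in 8 libraries, and the titles were followed: summed CPM of 6 genes of the 2-cell stage that DUX induces was 0.16 to 4.4 in libraries titled as untreated and 438 to 5439 in those titled as treated. The summed level of 10 stem cell markers was 5553 to 5767 CPM in line 1 and 4279 to 5386 CPM in the other lines, so line 1 lay above every other library, and the part of this in the Meg3, Rian and Mirg differences was not tested. Trim33 was at 18.3 to 22.6 CPM in TRIM33-KO and 92.3 to 175 CPM in the other 5 lines. Trim24 (126 to 146 CPM in TRIM24-KO, 98.7 to 106 in line 1, 175 to 216 in line 2) and Duxbl1 (0.286 to 9.89 CPM in DUXBL-KO, 0.32 to 7.38 in WT) gave no check of their knockouts, and the labels do not say what was deleted. A single row, CT010467.1, took 30.4% of the gene counts in TRIM24-KO with DOX replicate 2 and 12.9% in TRIM33-KO with DOX replicate 2, so raw counts of these libraries should be read with their CPM.

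Meg3, a non-coding RNA studied as a growth suppressor, was present at a steady level in 20 libraries and close to nothing in the 4 libraries of WT pLV2 line 1. In line 1 it had 2 and 8 counts without DOX (0.143 and 0.538 CPM) and 13 and 12 counts with DOX (1.06 and 0.977 CPM). In WT it was at 138 and 108 CPM without DOX and 117 and 117 CPM with DOX. The 4 WT libraries were thus all above 100 CPM, and no library of line 1 came near them. In DUXBL-KO it was at 147 and 134 CPM without DOX and 152 and 113 CPM with DOX. In WT pLV2 line 2 it was at 143 and 117 CPM without DOX and 125 and 115 CPM with DOX. The highest library of all was a DUXBL-KO one, and the groups of these lines overlapped. In TRIM24-KO it was at 115 and 113 CPM without DOX and 113 and 123 CPM with DOX. In TRIM33-KO it was at 119 and 125 CPM without DOX and 104 and 113 CPM with DOX. Ordered by their mean CPM, the 8 highest groups, from DUXBL-KO without DOX (140.9) to WT with DOX (117), formed a run in which neighbours overlapped. TRIM24-KO without DOX (114) and TRIM33-KO with DOX (108) stood just below, and line 1 with DOX (1.02) and without DOX (0.34) came last.

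Rian, which hosts snoRNAs, followed Meg3. It had 6 and 17 counts without DOX and 10 and 21 counts with DOX in line 1, and 1504 to 5526 counts in each of the other 20 libraries. It was at 246 and 223 CPM without DOX and 252 and 252 CPM with DOX in WT. It was at 267 and 205 CPM without DOX and 292 and 205 CPM with DOX in DUXBL-KO. Replicates of DUXBL-KO lay further apart than those of WT with DOX. In WT pLV2 line 2 Rian was at 246 and 216 CPM without DOX and 214 and 205 CPM with DOX. In TRIM24-KO it was at 187 and 189 CPM without DOX and 183 and 201 CPM with DOX. In TRIM33-KO it was at 207 and 209.7 CPM without DOX and 181 and 191 CPM with DOX. The 4 libraries of line 1 held 0.43 to 1.71 CPM, and the groups of the 5 other lines lay in the order WT with DOX (251.8) down to TRIM33-KO with DOX (185.9).

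Mirg, which hosts miRNAs, had 1 and 1 counts without DOX and 1 and 4 counts with DOX in line 1, against 166 to 628 counts elsewhere. It was at 25.5 and 23.4 CPM without DOX and 29.6 and 30.3 CPM with DOX in WT. It was at 29.1 and 24.7 CPM without DOX and 36.1 and 24.9 CPM with DOX in DUXBL-KO. The highest library of line 1 was at 0.326 CPM, far under all of these. In WT pLV2 line 2 Mirg was at 26.1 and 19.2 CPM without DOX and 19.9 and 19.3 CPM with DOX. In TRIM24-KO it was at 25.8 and 26.7 CPM without DOX and 27 and 26.6 CPM with DOX. In TRIM33-KO it was at 18.8 and 18.9 CPM without DOX and 19.4 and 19.5 CPM with DOX. The TRIM24-KO and TRIM33-KO libraries did not overlap in either condition.

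**Figure D1:**
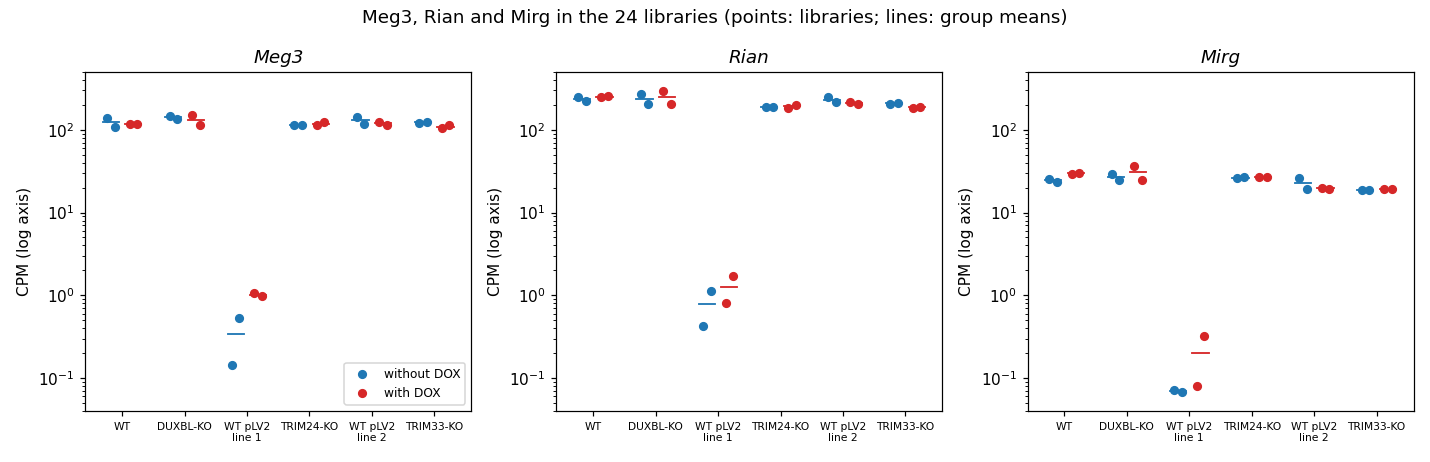
CPM of Meg3, Rian and Mirg on log axes, by line, with a point for each library, blue without DOX and red with DOX, and a short line at each group mean. The 4 libraries of WT pLV2 line 1 sit at or below 1.71 CPM in all 3 panels, and the other 20 sit at 18.8 CPM or above.

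The proportions of the 3 RNAs to one another could be read outside line 1. Per kilobase of exon, Rian stood at 9.93 to 16 CPM, Meg3 at 5.77 to 8.39 CPM and Mirg at 2.58 to 4.95 CPM in the 20 libraries outside line 1, so Rian was the highest of them per length and Mirg the lowest. Counts of Rian over counts of Meg3 ranged from 1.53 to 2.15, with a median of 1.74, and counts of Mirg over counts of Meg3 from 0.151 to 0.258, with a median of 0.192. The latter ratio was 0.216 to 0.239 in TRIM24-KO and 0.151 to 0.185 in TRIM33-KO, with no overlap. Together the 3 genes took 0.0197% to 0.0515% of the gene counts outside line 1 and at most 0.000279% in line 1. The low end, 0.0197%, was TRIM24-KO with DOX replicate 2, where CT010467.1 took 30.4% of the gene counts. In line 1 their counts were too few to give a proportion.

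Set against line 1, which the choice of the members used, the difference was of the same order in each of the other 5 lines. Without DOX, Meg3 was 379-fold higher in WT pLV2 line 2 (95% interval 206 to 791, exact, counting error only), 329-fold in TRIM24-KO (179 to 686) and 353-fold in TRIM33-KO (192 to 736). WT was 349.9-fold higher (190.1 to 730.2) and DUXBL-KO 406-fold (221 to 847). Rian was 292-fold higher in line 2 without DOX (194.5 to 461), and Mirg 332-fold (91.7 to 2749). Mirg had only 2 counts in line 1 without DOX. With DOX the folds over line 1 were lower for each of the 3 genes in line 2: 118-fold for Meg3 (79.8 to 183), 166-fold for Rian (117 to 245) and 96.6-fold for Mirg (41.1 to 299). In the fit, line 2 against line 1 gave log2 fold changes of 8.50 ± 0.457 (SE) for Meg3, 8.15 ± 0.309 for Rian and 8.17 ± 0.917 for Mirg without DOX, and 6.86 ± 0.297, 7.35 ± 0.271 and 6.52 ± 0.588 with DOX. Single line 1 libraries moved these values: without DOX, leaving out replicate 1 or replicate 2 of line 1 gave 7.91 or 9.75 for Meg3 and 7.67 or 9.06 for Rian, while Mirg stayed within 7.95 and 8.39 over all 13 alternatives. With DOX, leaving out replicate 1 or replicate 2 of line 1 gave 6.92 or 7.97 for Rian and 5.86 or 7.74 for Mirg, while Meg3 stayed within 6.79 and 6.92. In that contrast 38.3% of all 18079 genes tested passed an adjusted p of 0.05 without DOX and 40.1% with DOX. Fewer cells that express these RNAs and less RNA per cell cannot be told apart in bulk libraries.

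Reads over the small RNA rows hosted by these transcripts went the same way. Of 87 miRNA, snoRNA and other rows on the plus strand from Meg3 to Mirg, members left aside, 81 had no count in any of the 4 line 1 libraries. All 87 had counts in the other 20. Their counts summed to 18 in line 1 and 18002 elsewhere. The 59 miRNA rows among them summed to 2 counts in line 1, 646 in line 2, 557 in TRIM24-KO, 547 in TRIM33-KO, 1051 in WT and 1274 in DUXBL-KO. The 23 snoRNA rows summed to 3 counts in line 1, 618 in line 2, 421 in TRIM24-KO, 485 in TRIM33-KO, 832 in WT and 881 in DUXBL-KO. The remaining 5 rows, which are neither, held 13 counts in line 1 and 10703 over all libraries, the larger part of the sum. No library outside line 1 had fewer than 61 counts over the miRNA rows or 56 over the snoRNA rows, and no library of line 1 had more than 1 or 3. These libraries were not selected for small RNA, so a read over a hairpin or a snoRNA may come from its host transcript, and mature miRNA was not measured.

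Single rows showed the same. Mir1906-1, the hairpin row with the most counts, which lies within Meg3, had 0 counts in line 1 and 20 to 65 in each other library, and was at least 25.7-fold higher in line 2 than the 3-count floor of line 1 (over the group) without DOX. Gm24895, the snoRNA printed above, had 2 counts over the 4 line 1 libraries and 38 to 121 in each other library, at least 52.9-fold above the same floor in line 2 without DOX. B830012L14Rik, an annotated long non-coding RNA between Rian and Mirg, had 0 to 2 counts per library in line 1 and 94 to 517 elsewhere, and was 237-fold higher in line 2 without DOX (65.3 to 1962). Gm37899, between Rian and B830012L14Rik, had 0 to 6 counts in line 1 and 54 to 365 elsewhere. The 6 rows opposite Rtl1 (mature sequences of all but Mir136 are printed above) held 261 counts for Mir433, 95 for Mir432, 94 for Mir127, 71 for Mir434, 53 for Mir431 and 4 for Mir136 over all libraries, and 0 in line 1 for each. Gm24564 (a snoRNA) and Gm27350 (a short RNA at the start of Rian) had at most 30 and 25 counts in any library and 1 and 0 in all of line 1.

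The minus strand did not share this pattern throughout. Its 16 rows other than Rtl1 summed to 40 counts in line 1, 86 in line 2, 74 in TRIM24-KO, 109 in TRIM33-KO, 86 in WT and 107 in DUXBL-KO. Of these, Gm34081, a long non-coding RNA between Dlk1 and Meg3, had 0 counts in all 4 line 1 libraries and 2 to 20 in each of the other 20. Dio3os, which lies on the minus strand just before Dio3, had 4, 3, 3 and 1 counts in line 1 and 0 to 5 elsewhere. Gm3379, a row with no count in some replicates and up to 48 in others of the same group, held most of the rest. Those 3 rows were picked out after their values were seen.

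**Figure D2:**
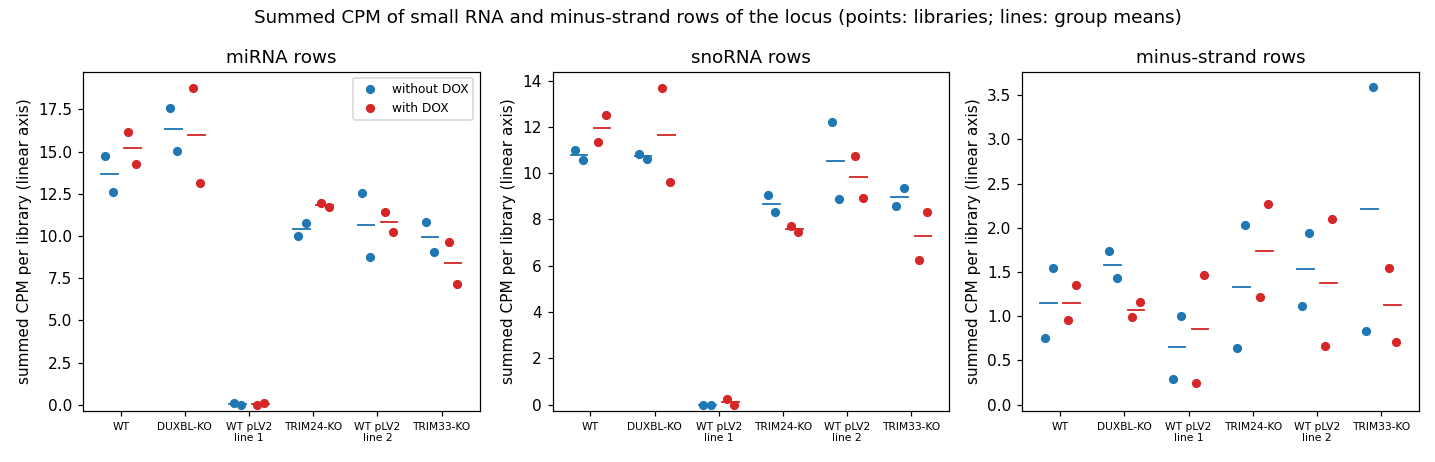
Summed CPM of the 59 miRNA rows, the 23 snoRNA rows and the 16 minus-strand rows, on linear axes by line, with a point per library, blue without DOX and red with DOX, and a line at each group mean. In WT pLV2 line 1 the miRNA rows reach at most 0.0814 CPM and the snoRNA rows 0.244 CPM, below every other library (7.15 and 6.26 CPM or more), whereas the minus-strand rows of line 1 (0.244 to 1.47 CPM) overlap those of the other lines.

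Dlk1, expressed from the other parental copy, was low in every library and lowest in line 1. In line 1 it had 7 and 14 counts without DOX (0.502 and 0.941 CPM) and 7 and 6 with DOX (0.569 and 0.488 CPM). In line 2 it had 79 and 49 counts without DOX (4.02 and 3.17 CPM) and 37 and 35 with DOX (3.06 and 2.82 CPM). In TRIM24-KO it was at 2.37 and 3.20 CPM without DOX and 3.29 and 2.27 CPM with DOX. These libraries overlapped those of line 2. In TRIM33-KO it was at 2.51 and 3.70 CPM without DOX and 2.50 and 3.17 CPM with DOX. In WT it was at 1.37 and 1.175 CPM without DOX and 2.02 and 1.59 CPM with DOX, and in DUXBL-KO at 1.88 and 1.67 CPM without DOX and 1.40 and 1.205 CPM with DOX. These 2 lines lay between line 1 and the rest of the pLV2 set, with no overlap on either side. Per kilobase, Dlk1 never passed 0.711 CPM, while Meg3 outside line 1 never fell under 5.77 CPM.

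As a description, Dlk1 was 5.01-fold higher in line 2 than in line 1 without DOX (3.14 to 8.37, counting error only) and 5.56-fold with DOX (3.06 to 10.9), a far smaller ratio than that of the maternal RNAs. Over line 1, Dlk1 was 3.84-fold higher in TRIM24-KO without DOX (2.36 to 6.50) and 5.46-fold with DOX (2.95 to 10.9), and in TRIM33-KO 4.27-fold (2.67 to 7.15) and 5.30-fold (2.85 to 10.6). These ratios share the line 1 libraries, where Dlk1 had 6 to 14 counts and passed the filter only through other lines, so they too are given with no test. Against line 2, where 48.1% and 46.8% of genes passed for TRIM24-KO and 1.52% and 3.57% for TRIM33-KO, neither Dlk1 nor Dio3 passed in edgeR. The fibroblast markers described below, which feeder cells would bring, stood at 64.2 to 79.1 CPM in line 2, 51.0 to 67.0 CPM in TRIM33-KO, 41.7 to 56.0 CPM in TRIM24-KO and 42.5 to 60.9 CPM in line 1, and their part in the Dlk1 differences was not tested.

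Rtl1 RNA was at the edge of detection, with 35 counts over all 24 libraries and 0 to 5 in each. All 4 libraries of line 2 had 0 counts, and line 1 had 1, 0, 0 and 2. TRIM24-KO had 1 and 5 counts without DOX and 4 and 1 with DOX, and DUXBL-KO had 4 and 3 without DOX and 0 and 3 with DOX. Differences between lines were not tested, and reads of the hairpin transcript from the opposite strand could not be told apart from Rtl1 reads.

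Dio3 RNA was low and did not follow Meg3. In line 1 it had 21 and 23 counts without DOX (1.51 and 1.55 CPM) and 19 and 27 with DOX (1.54 and 2.198 CPM). In line 2 it had 12 and 9 counts without DOX (0.611 and 0.583 CPM) and 25 and 25 with DOX (2.07 and 2.01 CPM). The untreated libraries of line 1 were thus above those of line 2, and the treated ones overlapped. In TRIM24-KO it was at 0.705 and 0.492 CPM without DOX and 0.433 and 1.60 CPM with DOX. In TRIM33-KO it was at 1.05 and 0.76 CPM without DOX and 2.41 and 2.23 CPM with DOX. The treated libraries of TRIM33-KO lay above the untreated ones, whereas those of TRIM24-KO spread on both sides. In WT it had 4 and 3 counts without DOX (0.273 and 0.16 CPM) and 19 and 17 with DOX (1.01 and 0.821 CPM). In DUXBL-KO it had 46 and 16 counts without DOX (2.22 and 0.762 CPM) and 58 and 31 with DOX (3.39 and 1.49 CPM), so the replicates of DUXBL-KO differed more than those of any other line without DOX. As a description, Dio3 in line 2 over line 1 was 0.392 without DOX (0.222 to 0.674, counting error only) and 1.09 with DOX (0.716 to 1.67).

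**Figure D3:**
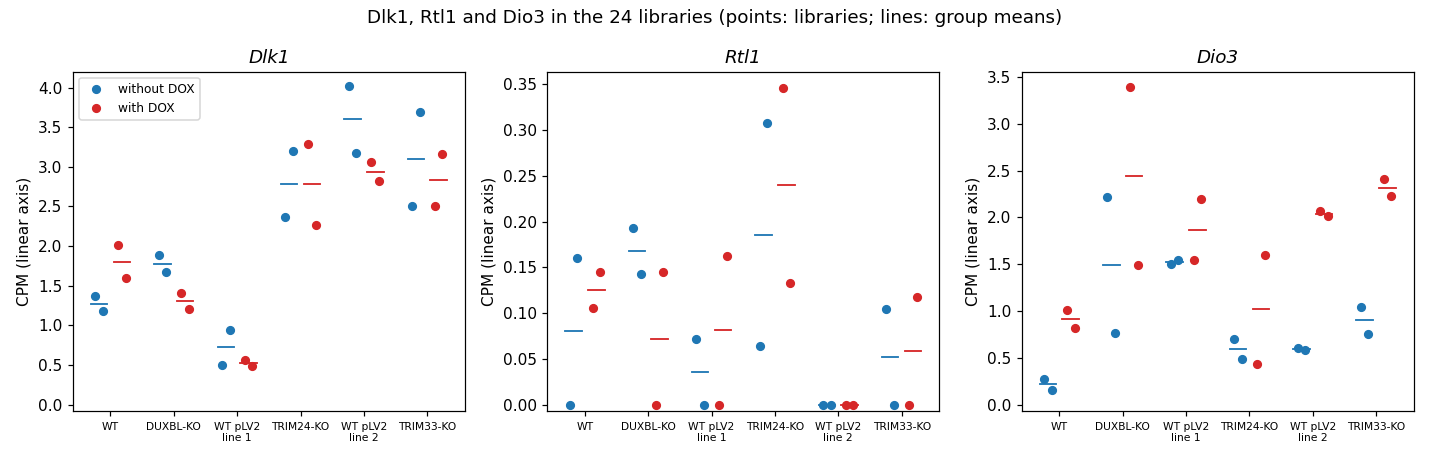
CPM of Dlk1, Rtl1 and Dio3 on linear axes by line, with a point per library, blue without DOX and red with DOX, and a line at each group mean. Dlk1 is lowest in WT pLV2 line 1 (0.488 to 0.941 CPM), Rtl1 does not pass 0.346 CPM in any library, and the 2 treated libraries of WT, WT pLV2 line 2 and TRIM33-KO stand above their untreated ones for Dio3.

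Among the members, only Dio3 passed the test for a response to 16 h of DOX, in TRIM33-KO. In line 1 only Rian and Dio3 had libraries of both groups that reached the filter on low counts. Meg3 reached it there only with DOX (13 and 12 counts against 2 and 8). Mirg and Dlk1 passed it through their counts in other lines. None of Meg3, Mirg and Dlk1 is counted as tested there. Otherwise Meg3, Rian, Mirg and Dlk1 did not pass the threshold in any line by edgeR, against 2.93% of all genes in WT, 4.91% in DUXBL-KO, 16.3% in line 1, 26.8% in line 2, 16.4% in TRIM24-KO and 36.6% in TRIM33-KO. With the replicate block 961 genes in place of 529 passed in WT and 1594 in place of 886 in DUXBL-KO. Among these members, where counted as tested, only Meg3 in TRIM33-KO had an unadjusted p under 0.05 (0.0361, edgeR). Meg3 differed by -0.08 ± 0.163 (log2 fold change ± SE) in WT, -0.08 ± 0.162 in DUXBL-KO, -0.15 ± 0.0923 in line 2, 0.07 ± 0.0942 in TRIM24-KO and -0.21 ± 0.0938 in TRIM33-KO. The difference in TRIM33-KO had an adjusted p of 0.0855 in edgeR, and 0.0165 when no filter on low counts was used, and Rian there (-0.21 ± 0.0999) went from 0.121 to 0.0139. In line 2 the values moved with the untreated replicate left out: without replicate 2, Meg3 was at -0.26 (adjusted p = 0.0479, edgeR) and Mirg at -0.42 (adjusted p = 0.0245). Without replicate 1 the signs turned, Meg3 being at 0.034 (adjusted p = 0.843, edgeR) and Mirg at 0.022 (adjusted p = 0.933).

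In line 1 the few Meg3 counts were more with DOX, 25 against 10 over 2 libraries each, a log2 fold change of 1.49 ± 0.537 (SE). No test is given, since Meg3 reached the filter there only with DOX. The value was 0.91 without replicate 1 and 2.75 without replicate 2 of the untreated libraries. Rian in line 1 was at 0.62 ± 0.399 (adjusted p = 0.335, edgeR). Mirg had 1, 1, 1 and 4 counts there and Dlk1 7, 14, 7 and 6. Even with DOX, Meg3 in line 1 stayed at 1.06 CPM or below.

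Dio3 rose with DOX in TRIM33-KO, by 1.32 ± 0.394 (log2 fold change ± SE, adjusted p = 0.0141, edgeR's quasi-likelihood test). It was the sole member to pass among the 5 tested there, where 36.6% of all genes passed, so the share of members called was no higher than the background share. In line 2 Dio3 was higher with DOX by 1.72 ± 0.432. Only the treated libraries (25 and 25 counts against 12 and 9) reached the filter on low counts there, so no test is given. The difference in line 2 stayed within 1.70 and 1.79 over all 13 alternatives. The call in TRIM33-KO was lost in a single fit over all 24 libraries (adjusted p = 0.0636, edgeR), without TRIM33-KO without DOX replicate 2 (1.12, adjusted p = 0.0915) and without TRIM33-KO with DOX replicate 1 (1.26, adjusted p = 0.0922). In WT the difference was 2.07 ± 0.866, again with no test, since only the treated libraries (19 and 17 counts against 4 and 3) reached the filter. In DUXBL-KO it was 0.71 ± 0.561 (adjusted p = 0.674), and ranged from 0.012 without treated replicate 1 to 1.64 without untreated replicate 1. In TRIM24-KO it was 0.63 ± 0.519 (adjusted p = 0.474, edgeR) and in line 1 0.26 ± 0.377 (0.719). Whether these responses differ between lines was tested for DUXBL-KO against WT and for TRIM33-KO against TRIM24-KO, where no member passed the test of the difference in edgeR (0% and 1.57% of all genes did, or 0 and 284 genes; Dlk1 in the former and Meg3 in the latter had an unadjusted p under 0.05).

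Between DUXBL-KO and WT no member passed the threshold in edgeR. Dio3 had an unadjusted p of 0.0486 with DOX, and no other member had one under 0.05. Without DOX, Dio3 is not counted as tested. Only DUXBL-KO (46 and 16 counts), and not WT (4 and 3), reached the filter on low counts there. Meg3 differed by 0.17 ± 0.162 without DOX and by 0.17 ± 0.162 with DOX, Rian differed by -0.01 ± 0.181 and -0.03 ± 0.181, and Mirg by 0.11 ± 0.181 and 0.02 ± 0.18. Dio3 had the largest difference of the 5, at 2.76 ± 0.846 without DOX (no test given) and 1.40 ± 0.592 with DOX (adjusted p = 0.492, edgeR). Leaving out DUXBL-KO replicate 1 or replicate 2 gave 1.81 or 3.35 without DOX and 0.69 or 1.87 with DOX. With DOX, Dio3 passed when low counts were not filtered (adjusted p = 0.0388, edgeR). Of all genes, 0.0388% passed without DOX and 0.072% with DOX, 7 and 13 genes by edgeR, and with the replicate block 440 and 485 genes passed.

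Mirg was lower in TRIM33-KO than in TRIM24-KO, by a log2 fold change of -0.46 ± 0.126 without DOX (adjusted p = 0.0057, edgeR's quasi-likelihood test) and -0.51 ± 0.14 with DOX (adjusted p = 0.00596). None of these 4 groups was used to choose the members, and the call held in all 13 alternatives in each condition (adjusted p up to 0.0273 and 0.0416). Meg3 and Rian did not pass: Meg3 differed by 0.12 ± 0.0914 and -0.17 ± 0.0964, and Rian by 0.16 ± 0.0987 and -0.09 ± 0.101. Of the 5 members tested, 1 passed without DOX and 2 with DOX, against 48.5% and 48.7% of all genes, so the share among the members was below that of the table. The second was Dio3, higher in TRIM33-KO with DOX by 1.29 ± 0.46 (adjusted p = 0.0252, edgeR). That call was lost without TRIM24-KO with DOX replicate 1 (0.51, adjusted p = 0.402), without TRIM33-KO with DOX replicate 1 (1.23, adjusted p = 0.0989) and without its replicate 2 (1.34, adjusted p = 0.0554). It was lost as well in a fit over all 24 libraries (adjusted p = 0.0804), in a fit of the compared groups alone (0.0641) and in DESeq2 (0.0631). The endoderm markers described below moved the same way as Mirg (23.3 to 31.4 CPM in TRIM24-KO, 3.99 to 5.54 CPM in TRIM33-KO), and their part in the Mirg difference was not tested. Of the other rows of the interval, 10 were tested and none passed in edgeR, with lowest adjusted p values of 0.0922 and 0.178.

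Dio3 was lower in TRIM24-KO than in line 1 without DOX, by -1.37 ± 0.449 (log2 fold change ± SE). No test is given for this difference. Only line 1 (21 and 23 counts), and not TRIM24-KO (11 and 8), reached the filter on low counts there. Between line 1 and these knockouts 34% of all genes tested passed for TRIM24-KO and 40.9% for TRIM33-KO without DOX, and 32.2% and 43.1% with DOX. For Dio3 in TRIM24-KO against line 1 without DOX, leaving out replicate 1 or 2 of line 1 gave -1.33 or -1.29. Leaving out replicate 1 or 2 of TRIM24-KO gave -1.64 or -1.07. With DOX the difference was -0.99 ± 0.458 (adjusted p = 0.104, edgeR), and leaving out replicate 2 of the treated TRIM24-KO libraries gave -2.03. Against line 2 with DOX, Dio3 in TRIM24-KO was at -1.10 ± 0.454 (adjusted p = 0.0506, edgeR), on the edge of the threshold. TRIM33-KO differed from line 1 by -0.77 ± 0.394 without DOX (adjusted p = 0.131, edgeR) and 0.30 ± 0.377 with DOX (0.551).

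**Figure D4:**
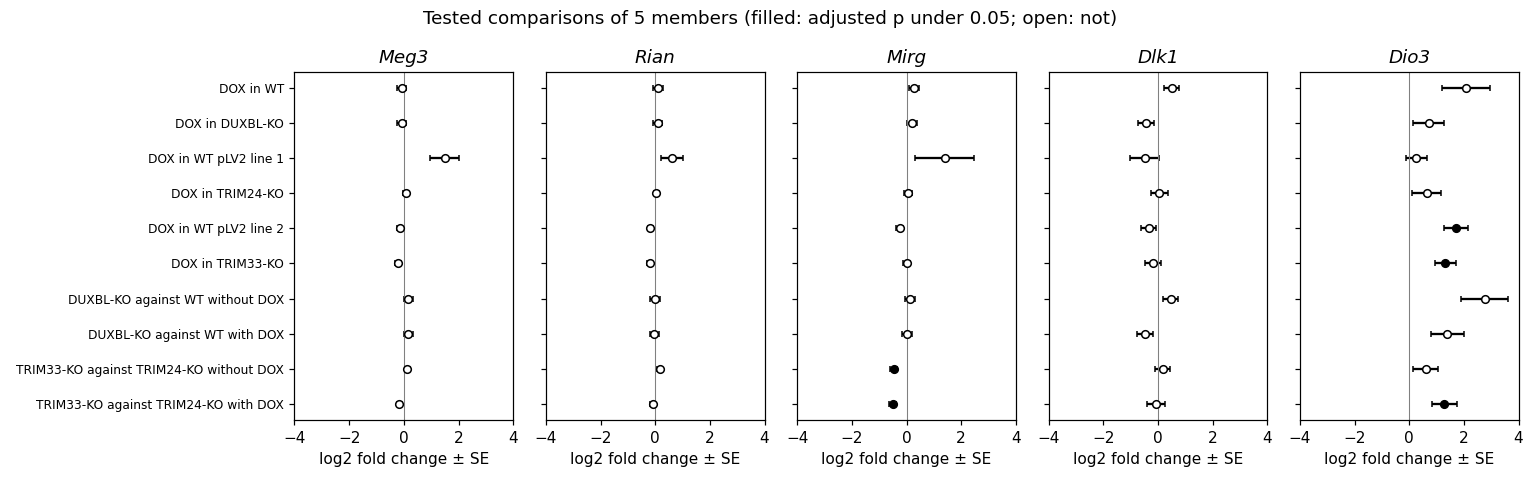
Log2 fold changes with their SE (bars) for the 5 members tested, in the 6 DOX comparisons and the 4 knockout comparisons that do not use the WT pLV2 lines as reference. The points of Meg3, Mirg and Dlk1 in WT pLV2 line 1 rest on 2 to 13, 1 to 4 and 6 to 14 counts per library and are not read as tests. The same holds for Dio3 with DOX in WT and WT pLV2 line 2 and in DUXBL-KO against WT without DOX. There only the higher group reached the filter on low counts. Filled points had an adjusted p under 0.05: Dio3 with DOX in WT pLV2 line 2 (1.72, not read as a test) and TRIM33-KO (1.32), Dio3 in TRIM33-KO against TRIM24-KO with DOX (1.29), and Mirg in TRIM33-KO against TRIM24-KO (-0.46 and -0.51).

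Genes next to the locus were read from 10 on each side. On the Dlk1 side, 10 genes from Cyp46a1 to Begain summed to 235 to 261 CPM in line 1 and 240.8 to 294.6 CPM in the other lines. On the Dio3 side, 10 genes from Ppp2r5c to Traf3 summed to 4410 to 4636 CPM in line 1, 3705 to 3888 CPM in line 2, 4318 to 4566 CPM in TRIM24-KO and 3574 to 3941 CPM in TRIM33-KO. Of the 19 flanking genes tested, 2 were higher and 6 lower in line 2 than in line 1 without DOX, and 4 and 8 with DOX, in the contrast in which 38.3% and 40.1% of all genes passed. On the Dio3 side 1 was higher and 5 lower of 10 without DOX, and 1 and 6 with DOX, with medians of -0.18 and -0.34. On the Dlk1 side 1 was higher and 1 lower of 9 without DOX, and 3 and 2 with DOX, with medians of 0.04 and 0.28. The median log2 fold change over both sides was -0.15 without DOX and -0.10 with DOX, against 0 and -0.03 over all genes and -0.08 and -0.08 over 748 genes of chromosome 12. The differences were small beside those of the members: Dync1h1, a motor protein gene, was at -0.53 ± 0.0604, Ppp2r5c, a phosphatase subunit gene, at -0.55 ± 0.0785, Wars, a tRNA synthetase gene, at 0.31 ± 0.0567 and Evl, an actin regulator gene, at -0.34 ± 0.0882 without DOX. Begain, the nearest listed gene before Dlk1, was at 1.19 CPM in TRIM24-KO and 2.37 CPM in TRIM33-KO without DOX and higher in the latter by 1.00 ± 0.324 (adjusted p = 0.0153, edgeR). In that contrast 3 genes were higher and 2 lower of 9 on the Dlk1 side, and 1 and 6 of 10 on the Dio3 side. With DOX the counts were 2 and 2, and 0 and 7. Medians on the Dio3 side were -0.25 and -0.31. Of all genes, 48.5% passed in it without DOX and 48.7% with DOX.

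**Figure D5:**
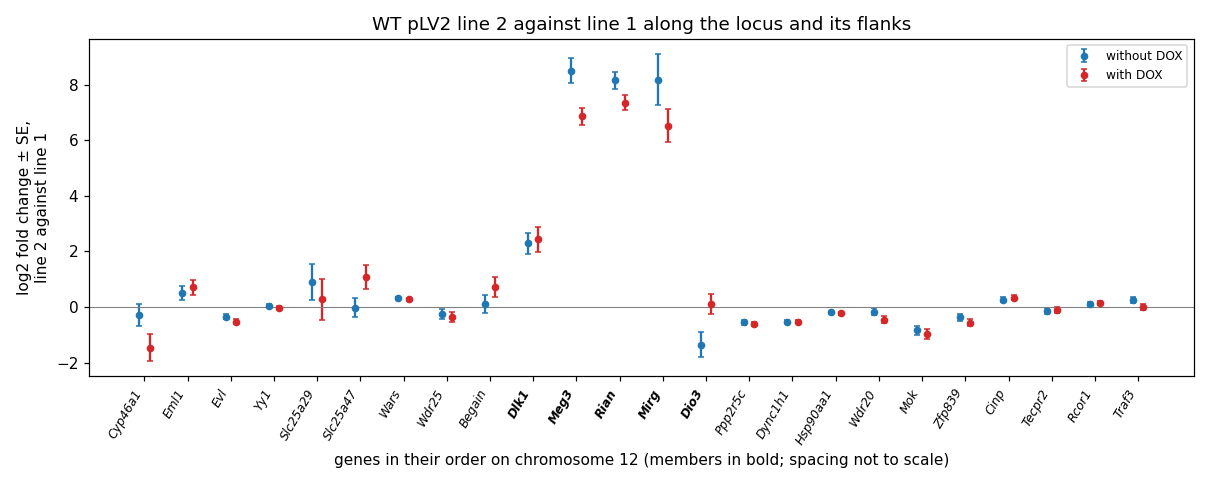
Log2 fold change of WT pLV2 line 2 against line 1 with its SE (bars), blue without DOX and red with DOX, for the 5 tested members (bold) and 19 flanking genes in their order on the chromosome. Meg3, Rian and Mirg stand between 6.52 and 8.50 and Dlk1 at 2.29 and 2.44, while Dio3 (-1.35 and 0.11) and the flanking genes lie far closer to 0 than the 3 maternal RNAs.

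Genes that guard or erase imprints were then read from a list of 20, all of which were tested. Zfp57, whose protein protects methylated imprints, was at 251 to 275 CPM in line 1, 175 to 215 CPM in line 2, 317 to 383 CPM in TRIM24-KO, 146 to 210.5 CPM in TRIM33-KO, 285 to 318 CPM in WT and 332 to 360 CPM in DUXBL-KO. Line 1 lay above line 2 and below TRIM24-KO in Zfp57. Dnmt3l, a partner of the de novo methyltransferases, was at 267 to 341 CPM in line 1, 389.5 to 476 CPM in TRIM24-KO and at most 147 CPM in line 2. Line 2 against line 1 had 5 genes of the list higher and 10 lower in each condition, 38.3% and 40.1% of all genes being called, with Dnmt3l at -1.27 ± 0.0853, Jarid2 (a Polycomb subunit) at -0.51 ± 0.0619, Dnmt3b (a de novo methyltransferase) at -0.63 ± 0.0775 and Aff3 (reported to bind the control region of this locus) at 1.62 ± 0.187 without DOX. TRIM33-KO against TRIM24-KO had 6 higher and 9 lower in each condition by edgeR, 48.5% and 48.7% of all genes being called. DUXBL-KO against WT had none in either direction by edgeR in either condition, 0.0388% and 0.072% of all genes being called.

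Imprinted genes from other loci were read from a further list. Of 29 tested, 12 were higher and 4 lower in line 2 than in line 1 without DOX, and 11 and 8 with DOX, in the contrast in which 38.3% and 40.1% of all genes passed. Their median log2 fold change was 0.34 without DOX and 0.45 with DOX, against 0 and -0.03 over all genes. Peg10, a paternally expressed retrotransposon-derived gene, was at 2.19 to 2.69 CPM in line 1 and at 240.4 CPM or more in every other library, up to 1581 CPM in TRIM24-KO. Sgce, its neighbour, was at 0 to 0.202 CPM in line 1, 3.14 to 8.19 CPM in line 2, 4.94 to 5.87 CPM in TRIM24-KO, 4.11 to 9.67 CPM in TRIM33-KO, 1.17 to 2.94 CPM in WT and 0.822 to 2.29 CPM in DUXBL-KO. Both were thus lowest in line 1. Mest, a hydrolase-like gene expressed from the paternal copy, was at 0.43 to 1.41 CPM in line 1 but also at 0.384 to 1.87 CPM in TRIM24-KO and 0.0953 to 0.585 CPM in DUXBL-KO, against 99.0 to 181 CPM in line 2 and 139.5 to 177 CPM in TRIM33-KO. Igf2, a fetal growth factor, was at 4.16 to 5.29 CPM in line 1 and 0.484 to 0.744 CPM in line 2, and at 12.9 to 19.4 CPM in TRIM24-KO. Whether any of these genes moved with Meg3 across the lines was not tested.

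By the pattern of log2(CPM + 1) over the 16 libraries of the pLV2 set, the genes outside the interval most like Meg3 among 11935 compared were Impdh1 (Pearson r = 0.984), Smo (0.981), Nufip2 (0.976), Peg10 (0.974) and Casd1 (0.972). Impdh1, Smo, Peg10 and Casd1 lie on chromosome 6 and Nufip2 on chromosome 11. These coefficients are a description, and they rest on the 4 libraries of line 1 standing apart from the other 12. Over all 24 libraries the order turned: r was 0.801 for Impdh1, 0.868 for Smo, 0.812 for Nufip2, 0.952 for Peg10 and 0.958 for Casd1. Impdh1 was at 25.9 and 28.7 CPM (means without and with DOX) in line 1 and at 46.4 CPM or more in each other group, Smo at 5.43 and 5.33 CPM and at 11.9 CPM or more, and Casd1 at 3.11 and 3.25 CPM and at 9.76 CPM or more. None of these 3 came as near to absence in line 1 as Meg3 and Peg10 did.

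Genes that process miRNAs and C/D box snoRNAs were present in every line. Of 11 tested, 3 were higher and 3 lower in line 2 than in line 1 in each condition (38.3% and 40.1% of all genes passed), with medians of 0.02 and 0.10. In TRIM33-KO against TRIM24-KO, 4 were higher and 2 lower in each condition by edgeR (48.5% and 48.7% of all genes). Nop58, a core protein of C/D box particles, was higher in TRIM33-KO than in TRIM24-KO by 0.67 ± 0.0926 (adjusted p = 1.42e-05, edgeR) without DOX. Dicer1, which cuts miRNA precursors, was higher by 0.86 ± 0.0974 (adjusted p = 1.71e-06, edgeR) there. The part of these genes in the Mirg difference of that contrast was not tested. In response to DOX, 1 gene of the list rose in each of the 4 pLV2 lines by edgeR, and 1 fell in line 1, 2 in line 2, 0 in TRIM24-KO and 2 in TRIM33-KO, where 16.3%, 26.8%, 16.4% and 36.6% of all genes passed. The gene that rose was Nop56, another C/D box protein, by 0.28 to 0.43. Those that fell were Ago1, an Argonaute that binds miRNAs (log2 fold changes of -0.27 in line 1, -0.39 in line 2 and -0.63 in TRIM33-KO), and Ago2, another Argonaute (-0.26 in line 2 and -0.26 in TRIM33-KO).

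Fibroblasts, which can serve as feeder cells and express several genes of this locus, were read from 19 markers. Their summed level was 42.5 to 60.9 CPM in line 1, 64.2 to 79.1 CPM in line 2, 41.7 to 56.0 CPM in TRIM24-KO, 51.0 to 67.0 CPM in TRIM33-KO, 37.2 to 48.9 CPM in WT and 34.3 to 46.4 CPM in DUXBL-KO. The range of line 1 lay below that of line 2 and overlapped those of the other 4 lines, and the part of these cells in the Meg3 difference was not tested. Between 4 and 8 of the 19 markers were at 0 in both libraries of a group. Col3a1 and Dcn, defining collagen and proteoglycan genes, did not pass 0.267 and 0.159 CPM in any library, and Lum and Postn did not pass 0.0641 and 0.0827 CPM. Other markers were higher: Col1a1 reached 8.09 CPM, Fbn1 13.02 CPM, Thy1 22.5 CPM and Col5a1 29.3 CPM. Col1a2, a collagen gene, was at 0 to 0.163 CPM in line 1, 0 to 0.267 CPM in TRIM24-KO, 0.611 to 2.65 CPM in line 2 and 1.15 to 3.47 CPM in TRIM33-KO, so line 2 and TRIM33-KO lay above line 1 and TRIM24-KO. Other markers had another order: Tagln, an actin-binding protein gene, was at 3.17 to 4.72 CPM in line 1, 2.63 to 3.20 CPM in TRIM24-KO, 1.13 to 2.14 CPM in line 2 and 1.98 to 2.99 CPM in TRIM33-KO, and Pdgfra, a growth factor receptor gene, was highest in TRIM24-KO, at 2.54 to 4.49 CPM against at most 1.33 CPM elsewhere. These markers were picked out after their values were seen. Of 9 markers tested, 4 were higher and 1 lower in line 2 than in line 1 in each condition, 38.3% and 40.1% of all genes being called. Endoderm markers (6 genes) summed to 23.3 to 31.4 CPM in TRIM24-KO and 3.63 to 12.2 CPM elsewhere, trophoblast markers (4 genes) to 19.3 to 79.5 CPM and mesoderm and neural markers (6 genes) to 17.0 to 39.1 CPM over all libraries. In line 1 those 3 lists were at 4.63 to 6.11, 42.6 to 49.7 and 22.2 to 31.6 CPM.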

How the data were processed

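RNA-seq libraries of 12 groups (2 each) were used. The deposited tables hold raw counts per gene and per repeat subfamily, made by the authors. Per the submitters' processing notes, bcl2fastq 2.20.0, cutadapt 1.18, STAR 2.7.6a and mm10 were used. The counting tool and its strand setting are not given in the sources used here. Gene IDs were matched to GENCODE M21 (346 IDs did not match), and 1146 repeat rows were left out of library sizes.

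Counts were fitted with edgeR 4.0.16 in R 4.3.3 (TMM factors, filterByExpr by group, glmQLFit and glmQLFTest, two-sided, Benjamini-Hochberg over all genes tested, threshold 0.05). WT and DUXBL-KO (8 libraries, 18060 genes) were fitted apart from the pLV2 lines and their knockouts (16 libraries, 18079 genes). The code was tested on simulated data. Ratios to line 1 carry exact 95% intervals or use a floor of 3 counts over a group, and both cover counting error only.

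The members and gene lists were chosen with earlier results of these data known. Meg3, Rian and Mirg were not tested against the WT pLV2 lines, nor any member between these lines, and tests of Dlk1 against line 1 are not given because it passed the filter only through other lines. Named genes are the members, other interval genes with a mean of at least 10 counts, up to 4 called genes per list and contrast by smallest p, and the 5 genes most like Meg3 (mean of at least 50 counts). List ranges of Zfp57, Dnmt3l, Igf2, Sgce and Mest over all lines, and Begain, were picked after their values were seen. Alternatives were RLE factors, other filters, library sizes with repeats, CT010467.1 left out, a replicate block, other sets of libraries in the fit, DESeq2 1.42.0 and leaving out each library.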

Additional observations from a re-analysis of the deposited data

Results flagged for a closer look

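Some responses to DOX had opposite signs in a pair of lines, with every treated library on one side of the untreated ones in each line. The difference between the lines was not tested in any of these cases. None of the single responses passed the threshold in the main edgeR fit, where Meg3 in line 1 is not counted as tested. With no filter on low counts, Meg3 and Rian passed in TRIM33-KO (adjusted p = 0.0165 and 0.0139, edgeR). Meg3 was 0.676 CPM higher on average with DOX in WT pLV2 line 1, where it was nearly absent, and differed by -13.87 CPM in TRIM33-KO. Rian differed by 17.14 CPM with DOX in WT, by -21.755 CPM in WT pLV2 line 2 and by -22.575 CPM in TRIM33-KO. Dlk1 differed by 0.534 CPM with DOX in WT and by -0.657 CPM in WT pLV2 line 2.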

How the results depend on the processing

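Of 1194 values of single members under an alternative, 1126 kept their direction and side of the threshold (or, untested, moved by less than the replicate spread), 30 changed sign, 15 lost and 14 gained a call, and 9 moved further. These counts include values that are not read as tests above. No sign change touched a called value. Another scaling moved a group's mean CPM by at most 14.6%. The cause of the changes below was not tested.

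Without the filter on low counts Mirg was at -0.037 with DOX in TRIM33-KO, Rian at 0.00049 for DUXBL-KO against WT without DOX (0.0090 in one fit over all libraries), and Meg3 at -0.25 with DOX in TRIM33-KO and 1.52 in line 1. Meg3 in line 1 was at 1.52 with CT010467.1 left out and 1.53 in DESeq2. With the compared groups alone, Mirg was at -0.0042 for DUXBL-KO against WT with DOX, and in DESeq2 Dlk1 was at 0.014 for TRIM33-KO against TRIM24-KO with DOX. Dio3 was at 1.36 with DOX in TRIM33-KO in one fit over all libraries. For TRIM33-KO against TRIM24-KO with DOX, Dio3 was at 1.32 in that fit, 1.29 with the compared groups alone and 1.31 in DESeq2, and for TRIM24-KO against line 1 without DOX at -1.34 in that fit and -1.34 in DESeq2.

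Leaving out each library in turn, with DOX, Meg3 ranged from -0.21 to 0.11 in WT, -0.30 to 0.092 in DUXBL-KO, 0.91 to 2.75 in line 1 and -0.26 to 0.034 in line 2. Rian ranged from -0.20 to 0.29 in DUXBL-KO, -0.0056 to 1.53 in line 1 and -0.012 to 0.094 in TRIM24-KO. Mirg ranged from -0.10 to 0.41 in DUXBL-KO and -0.42 to 0.022 in line 2. Dlk1 ranged from -0.82 to 0.076 in line 1, -0.30 to 0.27 in TRIM24-KO and -0.42 to 0.14 in TRIM33-KO, and Dio3 from -0.016 to 0.48, -0.43 to 1.41 and 1.12 to 1.58 there. For DUXBL-KO against WT, Rian ranged from -0.20 to 0.18 without DOX and -0.31 to 0.19 with DOX, Meg3 from -0.065 to 0.35 and Mirg from -0.28 to 0.25 with DOX. For TRIM33-KO against TRIM24-KO, Dlk1 ranged from -0.16 to 0.40 without DOX and -0.29 to 0.28 with DOX, and Dio3 from 0.51 to 2.34 with DOX. Dio3 in TRIM24-KO against line 1 ranged from -1.64 to -1.07 without DOX.

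Same-numbered replicates shared their deviations in WT and DUXBL-KO (r = 0.358 to 0.803 over 6 pairs) but not throughout the pLV2 set (-0.129 to 0.422 over 28 pairs), and the labels do not say what a number marks. With the replicate block, Dio3 in DUXBL-KO against WT without DOX was at 2.66 (no test given), and no call of a member given as a test changed.

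The number of genes called over the whole table, which is the background above, also moved by over 1.5 times. With DOX it was 529 in WT (1 to 1206 over the alternatives), 886 in DUXBL-KO (496 to 1849), 2942 in line 1 (lowest 1575), 4838 in line 2 (lowest 2725), 2969 in TRIM24-KO (lowest 1938) and 6611 in TRIM33-KO (lowest 4392). For DUXBL-KO against WT it was 7 without DOX (0 to 586) and 13 with DOX (0 to 908), and for the test of their difference in response 0 (up to 17). That test gave 284 for TRIM33-KO against TRIM24-KO (30 to 641). TRIM33-KO against line 2 had 274 without DOX (98 to 649) and 646 with DOX (89 to 1144), and TRIM24-KO against line 1 had 6141 without DOX (lowest 3953).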
